A study of Homo sapiens with 6 samples.

Results

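Transcription factors that specify and maintain monocytes were followed in THP-1 cells with and without overexpressed PTX4. They are SPI1, CEBPA, CEBPB, CEBPD, CEBPE, IRF8, KLF4, GFI1 and RUNX1, a list given by gene symbol and found by Ensembl identifier, so 9 of 78652 genes in the tables. THP-1 is a line of human monocytic leukaemia cells with an MLL-AF9 fusion gene. It was stably transduced with a PTX4 overexpression construct (PTX4-OE, 3 biological replicates) or with an empty vector (EV, 3 biological replicates), and both sets of cells had gone through transduction. The labels do not say which promoter drove the construct or whether a line was 1 clone, and all 6 libraries carry the same batch number. PTX4 encodes pentraxin 4, of the family of secreted recognition proteins that includes C-reactive protein.

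Blood monocytes arise when a small set of DNA-binding proteins act together on myeloid enhancers. PU.1, the product of SPI1, opens these enhancers, C/EBP proteins bind beside it, and IRF8 and KLF4 direct cells toward monocytes, while GFI1 and C/EBP-epsilon favour granulocytes in mouse and human. RUNX1 acts earlier, at the emergence of blood stem cells and in the switching on of SPI1, as known mainly from mice. Several of the C/EBP mRNAs yield long and short proteins from different start codons, which counts per gene cannot show.

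The libraries held 29670641 to 37718207 expected counts each. PTX4 had 24633, 14398 and 15782 counts in PTX4-OE replicates 1 to 3, against 0, 3 and 4 counts in EV replicates 1 to 3, so the groups matched their labels. Of 10 monocyte markers, 8 stood at 1 TPM (a level scaled for gene length and depth) or more in every library. The summed level of the 10 was 312.5 to 442.0 TPM in PTX4-OE libraries and 339.1 to 435.2 TPM in EV libraries. CD4 was under 1 TPM throughout, and CD14, the lipopolysaccharide co-receptor, was low, at 1.22 to 1.63 TPM in PTX4-OE libraries and 0.84 to 1.83 TPM in EV libraries. The 5 T cell markers had 0 counts in all libraries, and the erythroid, neutrophil and non-blood marker lists each summed to under 1 TPM. The neutrophil list held LTF, CAMP, LCN2, MMP8 and FCGR3B, and no genes of primary granules. Of those, ELANE, PRTN3, AZU1 and CTSG averaged 1637, 1927, 1125 and 799.8 TPM over the 6 libraries, and MPO 5.92 TPM. The 5 megakaryocyte markers summed to 1.38 to 3.38 TPM in PTX4-OE libraries and 1.79 to 3.31 TPM in EV libraries, with PF4 at 0 counts. The mitochondrial share of counts was 2.79% to 5.39% in PTX4-OE libraries, lowest in replicate 1, and 4.75% to 5.91% in EV libraries.

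The promoters of 4 of the 6 factors that varied between replicate numbers are printed. Of these 4, CEBPB and KLF4 varied in the direction opposite to IRF8 and CEBPA, as described further on. Each is the RefSeq window on GRCh38.p14 from 250 bases before to 50 bases after the start site, written 5′ to 3′ on the gene's strand. Capitals mark matches to short motifs: CCACCC (KLF-type), GAGGAA (the core that PU.1 binds) and TGTGGT (RUNX), each on either strand, and TATAAA, the motif of the TATA box, on the gene's strand.
CEBPA: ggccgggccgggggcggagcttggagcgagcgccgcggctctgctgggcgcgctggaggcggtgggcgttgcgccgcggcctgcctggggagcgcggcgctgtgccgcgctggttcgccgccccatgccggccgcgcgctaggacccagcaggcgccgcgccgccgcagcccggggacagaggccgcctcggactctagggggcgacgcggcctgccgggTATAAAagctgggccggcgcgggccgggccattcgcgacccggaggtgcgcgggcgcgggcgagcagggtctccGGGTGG
CEBPB: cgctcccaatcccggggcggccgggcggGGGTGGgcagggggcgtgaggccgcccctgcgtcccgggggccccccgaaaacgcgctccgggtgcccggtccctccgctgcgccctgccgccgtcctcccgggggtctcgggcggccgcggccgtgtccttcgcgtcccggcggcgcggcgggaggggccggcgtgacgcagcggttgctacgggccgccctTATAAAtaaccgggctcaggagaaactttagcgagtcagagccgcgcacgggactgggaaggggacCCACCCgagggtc
IRF8: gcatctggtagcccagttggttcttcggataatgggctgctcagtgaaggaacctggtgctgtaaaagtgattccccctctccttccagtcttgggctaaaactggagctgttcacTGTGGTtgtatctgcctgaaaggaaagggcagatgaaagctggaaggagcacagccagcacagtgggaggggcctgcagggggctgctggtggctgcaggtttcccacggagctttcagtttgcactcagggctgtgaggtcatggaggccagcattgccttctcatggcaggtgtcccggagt
KLF4: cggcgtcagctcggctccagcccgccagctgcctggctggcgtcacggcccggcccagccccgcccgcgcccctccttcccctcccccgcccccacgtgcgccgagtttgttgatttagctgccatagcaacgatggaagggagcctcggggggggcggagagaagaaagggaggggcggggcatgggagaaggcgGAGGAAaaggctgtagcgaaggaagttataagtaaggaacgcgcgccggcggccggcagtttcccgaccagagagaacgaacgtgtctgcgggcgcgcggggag
The CEBPA window is chr19:33302485-33302784 (minus strand), that of CEBPB is chr20:50190580-50190879 (plus strand), that of IRF8 is chr16:85902580-85902879 (plus strand) and that of KLF4 is chr9:107489720-107490019 (minus strand). The IRF8 and KLF4 start sites lie 3714 and 713 bases from the outermost gene start in GENCODE release 44, so both windows are inside the annotated gene.

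CEBPA and CEBPB shared a TATA box, at -30 and -29 from the start site, a motif that 7.33% of 35116 windows in the table hold. Both also held CCACCC, once in CEBPA and in 2 places in CEBPB, as did 34.3% of all windows. IRF8 held TGTGGT at -134 (13.1% of all windows) and KLF4 held GAGGAA at -54 (27.9% of all windows). Windows were searched for 7 factors, the others being CEBPE, GFI1 and RUNX1. GFI1, which also varied between replicate numbers, held none of the motifs searched. CEBPE and RUNX1 each held GAGGAA, and RUNX1 also held CCACCC. The CEBPE and RUNX1 start sites used lie 1001 and 1115968 bases from the outermost gene start, also inside the annotated gene. The C/EBP motif TTGCNNAA was in 0 of the 7 windows and in 10.5% of all windows, and the interferon regulatory factor motif, a GAAA repeated after 2 free bases, was in 0 of the 7 and in 3.57% of all. These are matches of letters in one window per gene and are not binding sites. SPI1 and CEBPD were not searched.

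IRF8 and SPI1 were the most abundant of the factors, and CEBPE was close to absent. Averaged over the 6 libraries, the deposited TPM was 320.8 ± 49.5 for IRF8, 273.1 ± 12.8 for SPI1, 168.6 ± 22.9 for CEBPD, 154.6 ± 20.5 for CEBPA, 93.9 ± 21.8 for CEBPB, 78.7 ± 8.63 for GFI1, 34.6 ± 2.30 for RUNX1, 14.1 ± 4.30 for KLF4 and 0.328 ± 0.160 for CEBPE (SD, n = 6). IRF8 ranked between 320 and 389 among all genes in a library, and SPI1 between 352 and 473. Neighbours in this order overlapped in range for IRF8 and SPI1, for CEBPD and CEBPA, and for CEBPB and GFI1. IRF8 exceeded SPI1 in 4 of 6 libraries and CEBPD exceeded CEBPA in 4 of 6, so neither order held in every library. The ranges of the other neighbours did not overlap, and GFI1 was below CEBPB in all 6 libraries although their ranges over libraries overlapped.

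**Figure D1:**
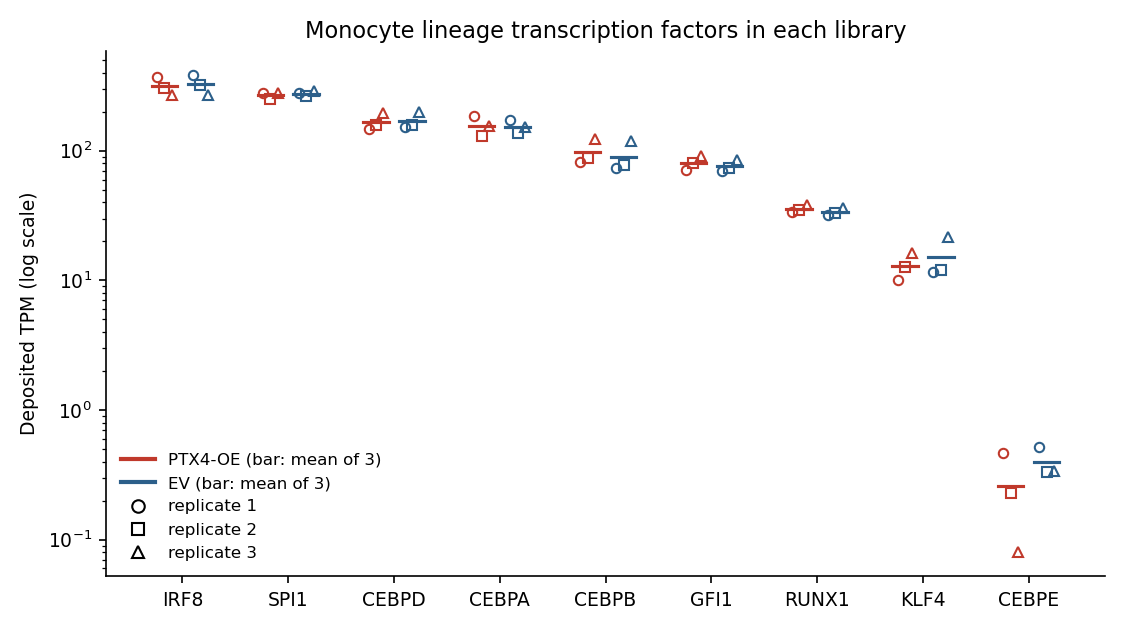
Deposited TPM (log axis) of each factor in the 6 libraries, PTX4-OE in red and EV in blue, with 1 symbol per replicate number and a bar at the mean of 3. The factors stand in order of their mean level; the 2 groups overlap for every factor, and CEBPE is below 1 TPM in all libraries.

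No tested factor passed an adjusted p of 0.05 between PTX4-OE and EV cells, and for most the 95% intervals allowed only a small change. Of the 9 factors, 8 passed the filter on low counts and CEBPE did not. In the edgeR quasi-likelihood test without pairing, 0 of the 8 passed a Benjamini-Hochberg adjusted p of 0.05, and 0 had an unadjusted p under 0.05. Of the 17625 genes tested, 0.00567% passed the adjusted threshold, PTX4 alone, and 0.743% had an unadjusted p under 0.05. With libraries of the same replicate number compared as pairs, 0 of the 8 passed in either direction and KLF4 alone had an unadjusted p under 0.05. Of all genes tested, 0.267% then passed, 0.0284% higher and 0.238% lower, and 8.79% had an unadjusted p under 0.05. DESeq2, with or without pairs, and limma-voom also called 0 of the 8. The 95% confidence interval lay within a 1.5-fold change in either direction for 7 of 8 factors without pairs, KLF4 being the exception, and for 8 of 8 with pairs. These intervals rest on variances moderated over all genes and are not each factor's own spread over replicates or pairs. The median log2 fold change of the 8 was -0.027 without pairs and -0.031 with them, beside 0.0077 and 0.0053 over all genes tested. In bulk RNA, fewer cells that express a gene and less of its RNA per cell cannot be told apart.

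**Figure D2:**
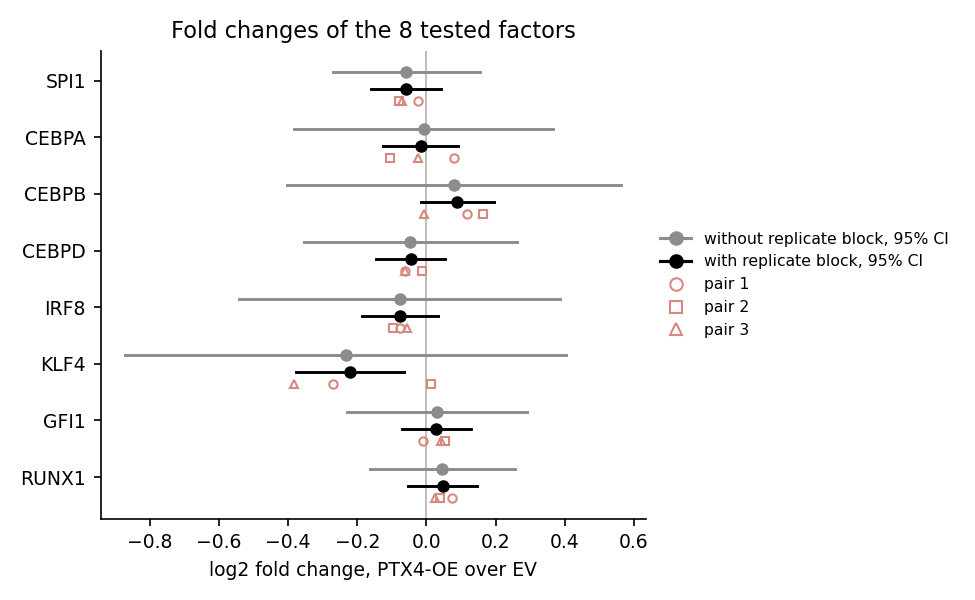
Log2 fold change of PTX4-OE over EV for the 8 tested factors with 95% confidence intervals, without pairs in grey and with replicate number as a block in black; open symbols below each are the differences within pairs 1, 2 and 3. Intervals rest on variances moderated over all genes. Those without pairs all include 0, and with pairs that of KLF4 does not, although its adjusted p was 0.337.

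SPI1 encodes PU.1, the ETS-family factor without which neither monocytes nor macrophages form in mice (ENSG00000066336.13, chromosome 11, 47354860 to 47378547, minus strand, GRCh38). Its level was 279.5, 252.5 and 278.7 TPM in PTX4-OE replicates 1 to 3, against 277.6, 263.1 and 287.3 TPM in EV replicates 1 to 3. The groups overlapped, and replicate 2 was the lowest in both. Its log2 fold change was -0.058 (SE 0.090, edgeR adjusted p = 1.00, 95% interval -0.27 to 0.15) without pairs and -0.059 (SE 0.047, adjusted p = 0.785, interval -0.16 to 0.042) with them. In CPM (counts scaled to library size by TMM) SPI1 was lower in all 3 pairs, as were CEBPD and IRF8, while RUNX1 was higher in all 3. Over all genes tested, 14.2% were lower and 16.4% higher in all 3 pairs in CPM. The direction depended on the scaling: in TPM, SPI1 was higher in pair 1 (279.5 against 277.6) and CEBPD in pair 2 (159.0 against 157.9).

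Among the C/EBP genes, CEBPA encodes C/EBP-alpha, which commits progenitors to the myeloid line and restrains their division (ENSG00000245848.3, chromosome 19, 33299934 to 33302534, minus strand). It had 184.1, 130.1 and 153.9 TPM in PTX4-OE replicates 1 to 3, against 171.6, 136.0 and 151.9 TPM in EV replicates 1 to 3. Replicate 1 was the highest and replicate 2 the lowest in both groups, and the groups overlapped. PTX4-OE over EV gave a log2 fold change of -0.0081 (SE 0.159, edgeR adjusted p = 1.00) without pairs and -0.017 (SE 0.051, adjusted p = 0.962, 95% interval -0.13 to 0.093) with them. Its sign was not settled: on log2(TPM + 1) it was 0.018, beside a median of 0.0368 over all genes in that fit. With single libraries left out it was -0.156 to 0.086.

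CEBPB encodes C/EBP-beta, which acts in inflammatory gene expression and in macrophages (ENSG00000172216.7, chromosome 20, 50190830 to 50192668, plus strand). It had 81.2, 88.7 and 122.8 TPM in PTX4-OE replicates 1 to 3, against 73.7, 77.3 and 119.6 TPM in EV replicates 1 to 3. Replicate 3 was the highest in both groups and the groups overlapped. The log2 fold change was 0.080 (SE 0.205, edgeR adjusted p = 1.00) without pairs and 0.090 (SE 0.050, adjusted p = 0.650, 95% interval -0.017 to 0.196) with them. Leaving out single libraries gave -0.088 to 0.302 without pairs.

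CEBPD encodes C/EBP-delta, induced in monocytes by inflammatory signals (ENSG00000221869.5, chromosome 8, 47736913 to 47738164, minus strand). It had 147.4, 159.0 and 196.7 TPM in PTX4-OE replicates 1 to 3, against 152.0, 157.9 and 198.6 TPM in EV replicates 1 to 3. As for CEBPB, replicate 3 was the highest in both groups and the groups overlapped. The log2 fold change was -0.046 (SE 0.130, edgeR adjusted p = 1.00) without pairs and -0.046 (SE 0.047, adjusted p = 0.840, 95% interval -0.145 to 0.054) with them.

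CEBPE encodes C/EBP-epsilon, which drives the late steps of granulocyte formation (ENSG00000092067.7, chromosome 14, 23117036 to 23120256, minus strand). It had 12, 5 and 2 counts in PTX4-OE replicates 1 to 3, against 12, 7 and 8 counts in EV replicates 1 to 3. The sums were 19 counts in PTX4-OE (exact 95% Poisson interval 11.4 to 29.7) and 27 counts in EV (17.8 to 39.3), and these intervals, which cover counting error only, overlapped. A difference was not detectable at this depth. With no filter on low counts the fitted log2 fold change was -0.64 (SE 0.71, edgeR adjusted p = 1.00).

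The makeup of the C/EBP mRNAs varied with the replicate number in both groups. CEBPA made up 44.6%, 34.4% and 32.5% of the summed TPM of the 4 genes in PTX4-OE replicates 1 to 3, against 43.1%, 36.6% and 32.3% in EV replicates 1 to 3. CEBPB made up 19.7%, 23.5% and 25.9% in PTX4-OE and 18.5%, 20.8% and 25.4% in EV. The ratio of CEBPA to CEBPB was 2.27, 1.47 and 1.25 in PTX4-OE and 2.33, 1.76 and 1.27 in EV, so it was below the EV value in each pair. No test was made of these ratios.

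Some transcripts overlap or neighbour the C/EBP genes, and the labels do not say whether the kit marked strand, so reads that lie where genes overlap cannot be told apart. CEBPB-AS1, on the strand opposite to CEBPB, had 2.00, 2.76 and 3.02 CPM (counts scaled to library size by TMM) in PTX4-OE replicates 1 to 3 and 1.96, 1.94 and 3.19 CPM in EV replicates 1 to 3. CEBPA-DT, the divergent transcript of CEBPA, had 12.1, 15.02 and 18.5 CPM in PTX4-OE and 12.2, 12.7 and 20.4 CPM in EV. Both were highest in replicate 3, as CEBPB and CEBPD were, whereas CEBPA was highest in replicate 1. ENSG00000267580, a noncoding RNA on the strand opposite to CEBPA, had 22.7, 16.5 and 18.0 CPM in PTX4-OE and 22.7, 21.2 and 20.8 CPM in EV, with a log2 fold change of -0.19 (SE 0.076, edgeR adjusted p = 0.492) with pairs.

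IRF8 encodes an interferon regulatory factor that turns myeloid progenitors toward monocytes and dendritic cells (ENSG00000140968.12, chromosome 16, 85899116 to 85922606, plus strand). It had 372.1, 306.4 and 269.7 TPM in PTX4-OE replicates 1 to 3, against 386.4, 319.1 and 271.0 TPM in EV replicates 1 to 3. Replicate 1 was the highest and replicate 3 the lowest in both groups, and within each number PTX4-OE was slightly below EV. For IRF8 the log2 fold change was -0.077 (SE 0.197, edgeR adjusted p = 1.00) without pairs and -0.076 (SE 0.051, adjusted p = 0.732, 95% interval -0.185 to 0.034) with them. The differences within pairs 1, 2 and 3 were -0.075, -0.097 and -0.055.

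KLF4, a zinc finger factor that acts downstream of PU.1 in monocyte differentiation, had the largest fold change of the 8 tested factors (ENSG00000136826.16, chromosome 9, 107484852 to 107490482, minus strand). It had 10.0, 12.6 and 16.4 TPM in PTX4-OE replicates 1 to 3, against 11.7, 12.1 and 21.8 TPM in EV replicates 1 to 3. The groups overlapped, and replicate 3 was the highest in both. KLF4 had a log2 fold change of -0.23 (SE 0.270, edgeR adjusted p = 1.00, 95% interval -0.87 to 0.40) without pairs and -0.22 (SE 0.074, adjusted p = 0.337, interval -0.38 to -0.065) with them. Pairs 1 and 3 gave -0.27 and -0.38, and pair 2 gave 0.013. Without EV replicate 3, where KLF4 was highest, the log2 fold change without pairs was 0.077. Leaving out the pair of replicate 1, 2 or 3 gave -0.20, -0.33 and -0.14, with adjusted p values in edgeR of 0.435, 0.170 and 0.780. ENSG00000289987, a noncoding RNA on the opposite strand, had 26 to 40 counts in PTX4-OE libraries and 19 to 74 counts in EV libraries.

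GFI1 is a zinc finger repressor that holds back monocyte genes in favour of granulocyte formation, as known from mice (ENSG00000162676.13, chromosome 1, 92473043 to 92486925, minus strand). It had 71.1, 80.3 and 91.7 TPM in PTX4-OE replicates 1 to 3, against 69.9, 74.0 and 85.2 TPM in EV replicates 1 to 3. Replicate 3 was the highest in both groups and the groups overlapped. GFI1 had a log2 fold change of 0.030 (SE 0.11, edgeR adjusted p = 1.00) without pairs and 0.029 (SE 0.047, adjusted p = 0.918, 95% interval -0.072 to 0.130) with them.

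RUNX1 encodes the DNA-binding subunit of core-binding factor (ENSG00000159216.20, chromosome 21, 34787801 to 36004667, minus strand). It had 33.5, 34.7 and 38.2 TPM in PTX4-OE replicates 1 to 3, against 31.8, 33.2 and 36.2 TPM in EV replicates 1 to 3, and the groups overlapped. The log2 fold change was 0.046 (SE 0.089, edgeR adjusted p = 1.00, 95% interval -0.16 to 0.26) without pairs and 0.047 (SE 0.047, adjusted p = 0.837, interval -0.053 to 0.146) with them. RUNX1 and SPI1 varied least over the 6 libraries, with a coefficient of variation of 6.64% and 4.68% in TPM, against 30.5% for KLF4 and 23.2% for CEBPB. In CPM the groups of all 8 tested factors overlapped, whereas PTX4-OE lay wholly above EV for 2.08% and wholly below for 2.05% of genes tested.

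Most of the tested factors differed between libraries of different replicate number. In a test of replicate number with group in the same fit, made after the data were seen, 6 of the 8 tested factors passed (edgeR quasi-likelihood test, adjusted p under 0.05). This is 75.0% of the factors tested, beside 51.6% of all genes tested, so such differences were common across the whole transcriptome of these libraries. CEBPB, CEBPD, KLF4 and GFI1 were higher in replicate 3 than in replicate 1, and CEBPA and IRF8 were lower. SPI1 and RUNX1 did not pass (adjusted p = 0.240 and 0.239). The labels do not say what a replicate number stands for, and each number holds only 1 library of each group.

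KLF4 differed most, with a log2 difference of 0.79 between replicates 3 and 1 (edgeR adjusted p = 7.6e-06), and its level in CPM was 1.66 times as high in PTX4-OE and 1.79 times as high in EV. CEBPB differed by 0.56 (adjusted p = 3.1e-06), with ratios of 1.41 in PTX4-OE and 1.54 in EV. CEBPD differed by 0.32 (adjusted p = 5.9e-04) and GFI1 by 0.24 (adjusted p = 0.0088). IRF8 went the other way, with -0.58 (adjusted p = 6.6e-06) and ratios of 0.672 in PTX4-OE and 0.663 in EV. CEBPA was at -0.31 between replicates 3 and 1 and at -0.41 between replicates 2 and 1 (adjusted p = 1.2e-04 for both together). The same 6 factors passed under DESeq2, limma-voom and log2(TPM + 1) with limma. They also passed when any single library was left out, except that GFI1 did not pass without EV replicate 3.

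**Figure D3:**
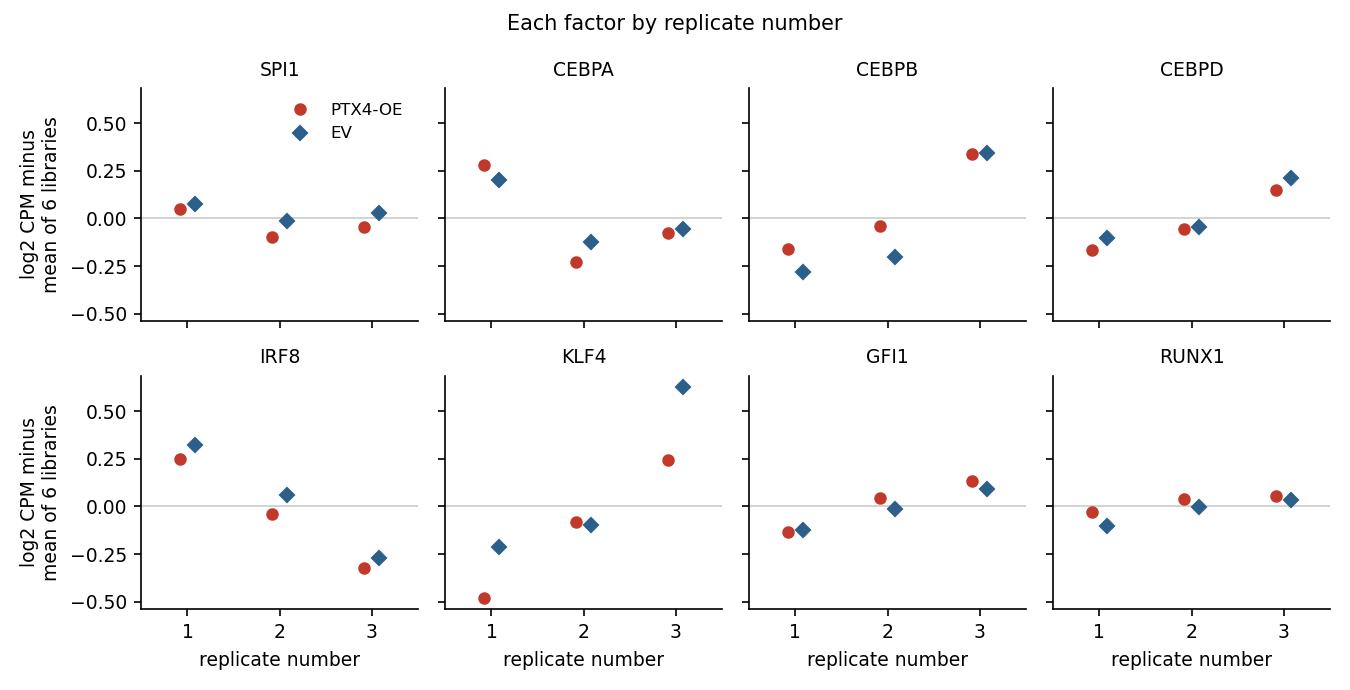
Each panel shows 1 factor as log2 CPM minus its mean over 6 libraries, by replicate number, with PTX4-OE as red circles left of EV as blue diamonds. Both groups are high in replicate 3 for CEBPB, CEBPD and KLF4 and low there for IRF8, while SPI1 and RUNX1 stay near 0.

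IRF8 went opposite to both GFI1 and KLF4 over the replicate numbers. The ratio of IRF8 to GFI1 in TPM was 5.24, 3.81 and 2.94 in PTX4-OE replicates 1 to 3, against 5.53, 4.31 and 3.18 in EV replicates 1 to 3. The ratio of IRF8 to KLF4 was 37.2, 24.3 and 16.5 in PTX4-OE and 33.1, 26.3 and 12.5 in EV. Both ratios were highest in replicate 1 and lowest in replicate 3 in both groups, and were given no test. Over the 6 libraries Pearson's r of log2(CPM + 1) was -0.981 for IRF8 with GFI1, -0.859 for IRF8 with KLF4, 0.830 for KLF4 with GFI1, -0.944 for IRF8 with CEBPB and 0.930 for CEBPB with CEBPD. These 6 points are 3 pairs of like-numbered libraries and share library, depth and composition, so the values only describe the pattern.

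Among 9438 protein-coding genes with a mean of 10 CPM or more, the gene most like each factor over the 6 libraries was taken by the same measure. For SPI1 it was CNNM3 (r = 0.9815), for CEBPA PIK3CB (0.9975), for CEBPB WDR13 (0.9992) and for CEBPD FHIP1B (0.9977). For IRF8 it was IFIH1 (0.9997), for KLF4 KIFC2 (0.9938), for GFI1 ZNF248 (0.9987) and for RUNX1 ACSS1 (0.9946). IFIH1 encodes a sensor of double-stranded RNA and had 40.9, 31.0 and 22.9 CPM in PTX4-OE replicates 1 to 3, against 44.5, 33.8 and 24.6 CPM in EV replicates 1 to 3. High likeness was common for IRF8, with 1725 genes over an r of 0.95, and rare for SPI1, with 13.

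Paralogs, partners and cofactors of the factors gave 0 calls in either direction. Of 29 such genes 26 were tested, and SPIC, RUNX1T1 and GFI1B were filtered out for low counts. Without pairs 1 of the 26 had an unadjusted p under 0.05, and with pairs 6 had, 2 of them higher in PTX4-OE and 4 lower. Of all genes tested, 0.743% had one without pairs and 8.79% with them, and 0.267% were called with pairs. Their median log2 fold change with pairs was 0.024. FOS, an AP-1 subunit that partners C/EBP and PU.1 at myeloid genes, had 96.2, 98.7 and 79.5 TPM in PTX4-OE replicates 1 to 3, against 110.0, 130.1 and 181.0 TPM in EV replicates 1 to 3. The groups did not overlap, and EV replicate 3 stood apart from the other libraries. Its log2 fold change with pairs was -0.60 (SE 0.122, edgeR adjusted p = 0.060). Its differences in pairs 1, 2 and 3 were -0.16, -0.44 and -1.19. JUN, its partner, was at -0.37 (SE 0.085, adjusted p = 0.101). Pair by pair JUN differed by -0.19, -0.15 and -0.74, and it too was highest in EV replicate 3, at 63.6 TPM against 31.9 to 39.1 TPM in the other 5 libraries. CBFA2T3, a corepressor, was at -0.15 (SE 0.055, adjusted p = 0.408). FOS and JUN passed with pairs when the pair of replicate 1 was left out, and FOS when that of replicate 3 was left out.

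Of 28 transcription factors of other blood stages and lineages 26 were tested, GATA1 and KLF1 being filtered out. Without pairs 0 passed and 1 had an unadjusted p under 0.05, and with pairs EGR1 fell while 25 did not pass. Of all genes tested, 0.743% had an unadjusted p under 0.05 without pairs, and 0.267% were called with pairs, 0.238% as lower. EGR1, a zinc finger factor induced by growth signals and active in macrophage differentiation, had 38.7, 38.6 and 37.4 TPM in PTX4-OE replicates 1 to 3, against 43.9, 43.2 and 46.6 TPM in EV replicates 1 to 3. The groups did not overlap, and the log2 fold change was -0.26 (SE 0.050, edgeR adjusted p = 0.046 with pairs, 1.00 without). EGR1 lost its call when the pair of replicate 2 or 3 was left out. PAX5, the B lineage factor, had 0.94, 0.71 and 0.58 TPM in PTX4-OE replicates 1 to 3, against 0.59, 0.43 and 0.24 TPM in EV replicates 1 to 3. It was higher in each pair, the groups overlapped, and its log2 fold change was 0.76 (SE 0.159, adjusted p = 0.067 with pairs). The 5 B cell markers, PAX5 among them, summed to 4.58 to 5.20 TPM in PTX4-OE and 3.21 to 4.68 TPM in EV, MS4A1 had 0 counts in all libraries, and their part in the result was not tested. ID1, an inhibitor of helix-loop-helix factors, was at -0.32 (SE 0.093, adjusted p = 0.235).

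Myeloid genes known as targets of these factors mostly had negative log2 fold changes, and 3 of them fell with pairs. Of 31 such genes 27 were tested, and 24 of the 27 had a negative log2 fold change in both fits, beside 8478 of 17625 genes tested with pairs. Without pairs 0 passed and 2 had an unadjusted p under 0.05, as had 0.743% of all genes tested. With pairs MPO, CSF3R and CSF1R fell, 24 did not pass and 0 rose, where 0.238% of all genes tested were called lower. With pairs 10 of the 27 had an unadjusted p under 0.05, all lower, where 8.79% of all genes had one in either direction. The median log2 fold change was -0.091 without pairs and -0.098 with them, beside 0.0077 and 0.0053 over all genes. The 13 mitochondrial mRNAs, counted as a sign of RNA quality, also all had negative log2 fold changes, with a median of -0.32 with pairs; MT-ND1 fell (-0.52, SE 0.098, edgeR adjusted p = 0.039) and 12 did not pass. Pairs 1, 2 and 3 gave median differences of -0.83, -0.067 and -0.17 over the 13, and of -0.10, -0.12 and -0.13 over the 27 target genes. MT-ND1 was at -0.93, -0.33 and -0.30 in pairs 1, 2 and 3, with PTX4-OE replicate 1 the lowest library. The median over the 13 mitochondrial mRNAs was furthest below 0 in pair 1. In pairs 1, 2 and 3, 13, 9 and 13 of these 13 were negative, and 20, 20 and 25 of the 27 target genes. The part of the mitochondrial mRNAs in the result was not tested. Lists were written with earlier results of these libraries known, which named these 3 genes as lower, so the count is not independent evidence of a direction.

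MPO, the peroxidase of primary granules and a target of RUNX1 and C/EBP-alpha, had 4.86, 5.78 and 4.07 TPM in PTX4-OE replicates 1 to 3, against 6.61, 8.39 and 5.82 TPM in EV replicates 1 to 3. Every PTX4-OE library was below every EV library in TPM but not in CPM, where PTX4-OE replicate 2 (13.3) was above EV replicate 3 (12.9), and with pairs the log2 fold change was -0.54 (SE 0.080, edgeR adjusted p = 0.0080). CSF3R, the receptor for G-CSF and a target of C/EBP-alpha and PU.1, had 25.2, 42.0 and 68.7 TPM in PTX4-OE, against 36.1, 49.8 and 81.4 TPM in EV. CSF1R, the receptor for M-CSF and a target of PU.1 and RUNX1, had 16.3, 13.1 and 10.3 TPM in PTX4-OE, against 19.3, 16.3 and 12 TPM in EV. The groups of both receptors overlapped, and both were lower in PTX4-OE in each pair, with log2 fold changes of -0.37 (SE 0.056, adjusted p = 0.0087) and -0.30 (SE 0.056, adjusted p = 0.039).

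The receptors differed between replicate numbers in opposite directions, as the factors did. CSF3R was highest in replicate 3 in both groups, with a log2 difference of 1.22 between replicates 3 and 1 (edgeR adjusted p = 2.1e-08), and CSF1R was lowest there, with -0.76 (adjusted p = 9.8e-07). Of the 27 target genes tested, 19 passed the test of replicate number, 7 higher and 12 lower in replicate 3 than in replicate 1. That is 70.4% of them, beside 51.6% of all genes tested. Among partners 18 of 26 passed (69.2%), and among factors of other stages 15 of 26 (57.7%). MPO lost its call, and CSF1R as well, when the pair of replicate 2 was left out, whereas CSF3R passed with any 1 pair left out.

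**Figure D4:**
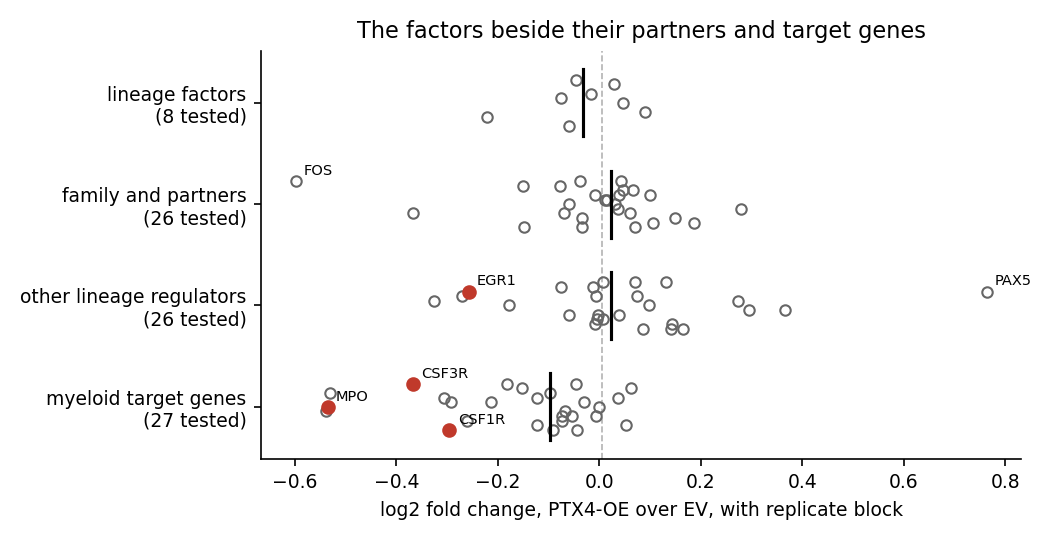
Log2 fold change of PTX4-OE over EV, with replicate number as a block, for the 8 tested factors, their family and partners, other lineage regulators and myeloid target genes; each circle is 1 gene, filled red circles passed an adjusted p of 0.05, black bars are medians and the dashed line is the median of all genes. The factors centre near 0 with KLF4 lowest, and 24 of 27 target genes lie below 0.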

How the data were processed

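RNA with poly(A) tails from 3 PTX4-OE and 3 EV cultures of THP-1 was sequenced as read pairs, per the labels' protocols. Per the submitters' processing notes, STAR and featureCounts were used with GRCh38, after FastQC 0.11.5. Other versions, annotation release and strand setting: not given in the sources used here. As tables, the authors deposited expected counts per Ensembl gene, not normalized, of which 7.94% of values are not whole, and TPM, scaled by the authors for length. The FPKM table was not used.

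Symbols were matched by Ensembl identifier (61463 of 78686 identifiers), and 34 gene pairs on X and Y were summed. Rounded expected counts went into edgeR 4.0.16 under R 4.3.3 (filterByExpr, TMM, quasi-likelihood F test, Benjamini-Hochberg adjustment over all 17625 genes). Standard errors were derived from the F statistic, so they carry variances that edgeR moderated over all genes. DESeq2 1.42.0, limma 3.58.1, other scalings and filters, and leaving out libraries served as alternatives. Python 3.11.15 with pandas 2.3.3 prepared the tables.

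Replicate numbers come from the labels. Same-numbered libraries deviated together from their group means (r = 0.602, 0.117 and 0.671 for numbers 1, 2 and 3, PTX4 left out). Libraries of different number gave r from -0.614 to 0.097, the highest for PTX4-OE replicate 1 with EV replicate 2. Every same-numbered r was over the limit of 0.1, that of number 2 only narrowly, so the numbers were taken to pair the libraries. Poisson intervals describe counting error alone, as PCR copies of a molecule could not be recognised.

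Genes named outside the 9 factors were those called in either fit, the 3 with the smallest p with pairs in each list, and the gene most like each factor; PTX4 and the neighbouring transcripts were added. The factors and lists were chosen with earlier results of these data known.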

Additional observations from a re-analysis of the deposited data

How the results depend on the processing

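The tested factors gave 0 calls in PTX4-OE against EV under each of the 17 alternatives run, of which 7 tested all 9 factors and 10 tested 8, without CEBPE. The 8 tested factors kept the sign of their log2 fold change in 119 of 136 recomputed values, and SPI1 in all 17. For CEBPA the sign turned on log2(TPM + 1) and log2(TPM + 0.1), both 0.018. The median over all genes in these 2 fits was 0.0368 and 0.0395, against 0.00766 in edgeR without pairs. Leaving out 1 library or 1 pair gave log2 fold changes of -0.156 to 0.086 for CEBPA (0.029 without the pair of replicate 2), -0.088 to 0.302 for CEBPB, -0.146 to 0.056 for CEBPD, -0.221 to 0.067 for IRF8, -0.434 to 0.077 for KLF4, -0.036 to 0.109 for GFI1 and -1.8e-04 to 0.080 for RUNX1. The causes were not tested.

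Over all genes, 1 passed without the replicate block and 47 with it (5 higher, 42 lower), against 3 in DESeq2, 38 in DESeq2 with the block, 0 in limma-voom, 2 with no filter and 2 on log2(TPM + 1). Leaving out single libraries gave 1, and leaving out the pair of replicate 1, 2 or 3 with the block gave 88, 23 and 208. The block added EGR1 among other lineage regulators (1, also in DESeq2 with the block) and 3 myeloid target genes (3 in DESeq2 with the block, where ITGB2 stood in place of CSF1R). Leaving out libraries or pairs gave 0 to 2 partners, 0 to 1 other regulators and 0 to 5 target genes (5, 1 and 4 without the pair of replicate 1, 2 or 3). Among mitochondrial mRNAs the block added MT-ND1 (1). Fractional counts, poly(A) selection and unknown strand limit overlapping genes. CEBPE did not pass the filter in the filtered fits of all 6 libraries, though it did in some fits with libraries or pairs left out. P-values without pairs measure the spread between 3 cultures a group. Those with pairs measure the spread left once differences between replicate numbers are taken out, over 3 pairs. In both fits edgeR moderated each gene's variance with that of all genes, so no p-value rests on the gene's own spread alone.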
